A study of Danio rerio with 9 samples.

Results

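The genes described here are the Hox cluster genes of the zebrafish: every gene of the count table whose symbol in the reference name table is a Hox cluster symbol (a cluster letter A to D and a paralog group number, in either letter case). They were 38 of 32434 genes in the table. RNA was sequenced from whole embryos of the wild-type 5D line at 48 hours post fertilization (hpf), after exposure in the dark from 6 hpf in vials of 20 embryos in 2 mL. All vials held 1% dimethyl sulfoxide (DMSO). Control embryos had this vehicle alone, BEZO embryos had 10 µM of the ketone 1,9-benz-10-anthrone, and BaAQ embryos had 10 µM of the quinone benzanthracene-7,12-dione, both oxygenated polycyclic aromatic hydrocarbons. Each group had 3 vials, described in the labels as independent biological replicates, and each vial of pooled embryos gave 1 library. Spawns came from separate days, and the labels do not tie a library to a day. The labels state 37 °C for the exposure, far above the usual zebrafish temperature, which could not be checked.

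Hox genes encode homeodomain transcription factors and lie in clusters, where their order along the chromosome matches the order of their expression along the body from head to tail. Genes at the same place in different clusters form a paralog group with a shared number. Low numbers act in the hindbrain and pharyngeal arches, middle numbers in the anterior spinal cord and trunk, and high numbers in the posterior trunk, tail and fin buds. Retinoic acid and Cdx factors switch Hox genes on. Polycomb and trithorax complexes keep them off or on, and Pbx and Meis proteins bind DNA together with Hox proteins.

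Of the 38 genes, 8 were of paralog groups 1 to 3 (called anterior here), 13 of groups 4 to 8 (central) and 17 of groups 9 to 13 (posterior). By cluster letter, 5 were HoxA, 15 HoxB, 11 HoxC and 7 HoxD genes. The name table gave 26 of them a capital symbol without the a or b of the zebrafish cluster copies, and 2 genes share the symbol HOXB5, so these carry their identifiers. A further 10 Hox identifiers of the name table were not among the identifiers of the count table. All 38 genes had reads in every library, from 6 to 1403 per gene and library, and all 38 had enough reads to be tested. Hox clusters are compact, neighbouring transcripts can overlap on either strand, and whether reads were assigned by strand is not given in the sources used here, so reads of overlapping transcripts cannot be told apart. Copies of similar sequence may also have shared reads.

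Libraries held 8106613 to 14435626 counted reads, and 18860 genes were tested. Markers of the tissues of a whole embryo were present in every library, with the neuronal gene ELAVL3 at 996 to 1068 CPM (counts scaled to a library of fixed size), the muscle gene MYOD1 at 22.4 to 34.3 CPM and the head gene OTX2 at 119 to 138 CPM. TBXT, a marker of tail bud and notochord, was at only 0.363 to 0.925 CPM. CPM here use the library size after TMM scaling. Values are given per library or as mean ± SD over 3 libraries, and a gene passed where its Benjamini-Hochberg adjusted p, taken over all tested genes from edgeR's quasi-likelihood test, was under 0.05. In whole embryos, fewer cells of a type and less RNA per cell cannot be told apart.

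The comparison of BEZO with Control asks whether the ketone altered Hox transcripts. The Hox genes that rose in BEZO embryos were anterior and central, and the only one that fell was posterior. Of the 38 members 7 passed (18.4%), against 6.44% of all tested genes. Of these, 6 rose (15.8%), against 3.09% of all tested genes, and 1 fell, against 3.35%. Those that rose were HOXB3 of the anterior class and HOXB5 (ENSDARG00000013057), HOXB5 (ENSDARG00000054030), HOXC5, hoxb6b and HOXC6 of the central class. The 1 that fell was HOXC12, of the posterior class. The genes that rose were 1.23-fold to 1.44-fold higher. Without BEZO 3, 4 members passed.

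HOXB3, a gene of the caudal hindbrain, had 97.0, 93.5 and 91.9 CPM in the 3 Control libraries and 118, 121 and 118 CPM in the BEZO libraries. Every BEZO library lay above every Control library, and the spread within each group was much smaller than the gap. The log2 fold change was 0.34 ± 0.06 (SE), with adjusted p = 0.00147. The call held under every alternative run, including the loss of any single library.

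The central genes that rose belong to paralog groups 5 and 6, which pattern the region where hindbrain, anterior spinal cord and trunk meet. HOXB5 (ENSDARG00000054030) stood at 36.6, 33.9 and 32.5 CPM in Control and at 47.0, 47.2 and 49.0 CPM in BEZO, a log2 fold change of 0.48 ± 0.08 (adjusted p = 0.000794). Its namesake HOXB5 (ENSDARG00000013057) stood at 43.3, 43.9 and 36.6 CPM in Control and at 52.4, 50.2 and 49.6 CPM in BEZO, a log2 fold change of 0.30 ± 0.08 (adjusted p = 0.0306). Neither gene had overlapping groups, but the call of the second was lost without Control 3 (adjusted p = 0.183), BEZO 1 (0.124), BEZO 2 (0.0574) or BEZO 3 (0.072).

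The hoxb6b gene had 15.1, 16.97 and 14.9 CPM in Control and 23.4, 22.7 and 21.6 CPM in BEZO. Its log2 fold change of 0.53 ± 0.10 (adjusted p = 0.00301) was the largest among the members that rose, and its call held under every alternative run. In the HoxC family, HOXC5 had 12.0, 13.8 and 11.8 CPM in Control and 17.8, 16.3 and 18.4 CPM in BEZO. HOXC6, a gene of limb-level spinal motor neurons in chick and mouse, had 16.7, 19.2 and 16.9 CPM against 25.4, 22.9 and 23.0 CPM. For both HoxC genes the groups lay apart, with log2 fold changes of 0.48 ± 0.11 (adjusted p = 0.0112) and 0.43 ± 0.10 (adjusted p = 0.00767). Without Control 3 or BEZO 3 the call of HOXC5 was lost (adjusted p = 0.0662 and 0.0588), and without BEZO 1 that of HOXC6 (0.0562).

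**Figure D1:**
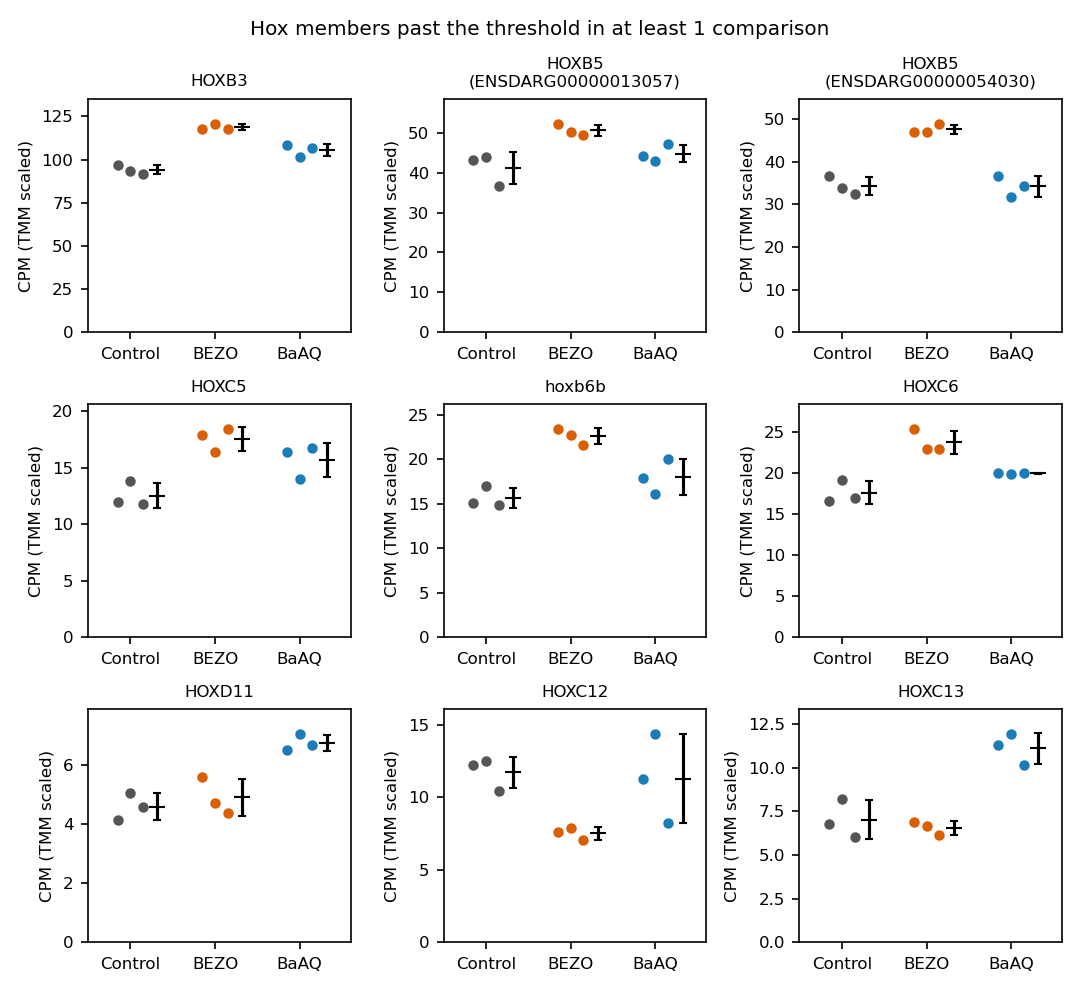
CPM after TMM scaling (y axis, linear, from 0) in the 9 libraries for the 9 Hox genes that passed in at least 1 of the 3 comparisons; points are libraries and black bars mean ± SD over 3 libraries. The 6 anterior and central genes are higher in all BEZO libraries than in all Control libraries, HOXC12 is lower in them, and HOXD11 and HOXC13 are higher in all BaAQ libraries.

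HOXC12, near the tail end of the HoxC cluster, had 12.2, 12.5 and 10.5 CPM in Control and 7.62, 7.89 and 7.05 CPM in BEZO. No BEZO library reached the lowest Control library. Its log2 fold change was -0.63 ± 0.16 (adjusted p = 0.0211). The call was lost when any of 4 libraries was left out, with an adjusted p of 0.0654 without Control 1, 0.0929 without Control 2, 0.0662 without BEZO 1 and 0.0893 without BEZO 3. Its neighbours in number, HOXC11 and HOXD12, were the next lowest, with log2 fold changes of -0.33 ± 0.17 and -0.34 ± 0.19 and groups that lay apart, but neither passed (adjusted p = 0.309 and 0.345).

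Over all members, passing or not, 26 estimates were positive, against 49.8% of all tested genes, and they were higher in the anterior and central than in the posterior class. In the anterior class all 8 estimates were positive, with a median log2 fold change of 0.33 and a range of 0.13 to 0.53. In the central class 12 of 13 were positive, with a median of 0.29 and a range of -0.01 to 0.53, the exception being HOXC8. Posterior genes had 6 positive and 11 negative estimates, a median of -0.04 and a range of -0.63 to 0.17. The median of all tested genes was 0.00. The Spearman correlation of the log2 fold change with the paralog group number was -0.82 over 38 genes. This is a description across genes that share the same 6 libraries and in part lie next to each other, not a test.

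By single paralog group, the median log2 fold change in BEZO was 0.37 for group 1, 0.25 for group 2, 0.21 for group 3 and 0.23 for group 4. It was 0.48 for group 5, 0.43 for group 6, 0.13 for group 7, which held 1 gene, and 0.18 for group 8. From there it was 0.13 for group 9, -0.05 for group 10, -0.18 for group 11 and -0.49 for group 12, so the medians did not fall steadily and groups 5 and 6 were the highest. Group 13, with 4 genes, was back near 0 with a median of -0.07. The highest single estimate was that of hoxb1a, a gene of the fourth hindbrain segment, at 2.55, 2.09 and 2.03 CPM in Control and 2.76, 3.16 and 3.68 CPM in BEZO. Its groups lay apart, but with few reads its log2 fold change of 0.53 ± 0.26 did not pass (adjusted p = 0.276). Its relative hoxb1b, which acts early in hindbrain patterning, had 12.6 to 13.3 CPM in Control and 14.6 to 18.5 CPM in BEZO (log2 fold change 0.36 ± 0.11, adjusted p = 0.0609). Another anterior gene, hoxa2b, a selector gene of the second pharyngeal arch, went from 5.73 to 6.93 CPM in Control to 7.05 to 9.20 CPM in BEZO (0.33 ± 0.15, adjusted p = 0.233).

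For each cluster letter the posterior median was the lowest, while anterior exceeded central genes in HoxB alone. A letter can pool the a and b copies of a cluster, as with hoxb1a and hoxb1b. The values by letter are therefore not those of single clusters. Among HoxB genes the median was 0.35 for 4 anterior, 0.30 for 8 central and 0.13 for 3 posterior genes. Among HoxC genes it was 0.29 for 2 anterior, 0.33 for 4 central and -0.10 for 5 posterior genes. HoxD genes had smaller values, 0.13 for the anterior HOXD3, 0.14 for the central HOXD4 and -0.01 for 5 posterior genes, and none of them passed. For HoxA there were only hoxa2b, at 0.33, and 4 posterior genes with a median of -0.03.

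**Figure D2:**
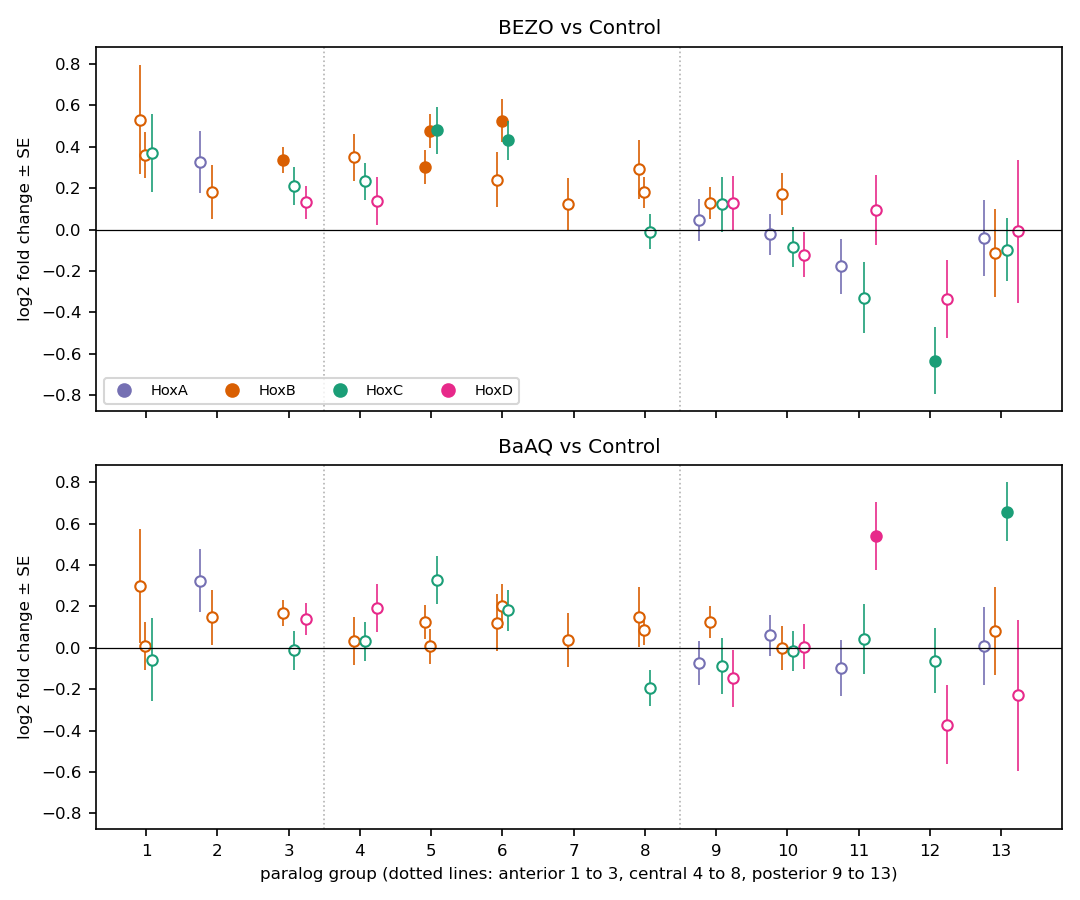
Log2 fold change ± SE (y axis) of each of the 38 Hox genes against its paralog group number (x axis), coloured by cluster letter, for BEZO against Control and BaAQ against Control, which share the Control libraries; filled points passed the test. In BEZO the medians lie between 0.21 and 0.48 in groups 1 to 6 and below 0 in groups 10 to 13, and in BaAQ most points lie near 0, with HOXD11 and HOXC13 above.

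Groups lay apart with BEZO higher for 15 of the 38 members, against 12.3% of all tested genes, and with BEZO lower for 3 members, against 12.4%. All 15 were anterior (6) or central (9), and all 3 were posterior. At an unadjusted p under 0.05, 12 members were higher (31.6%, against 9.53% of all genes) and 1 was lower (2.63%, against 10% of all genes). Of the posterior genes with the most reads in Control, HOXB9 had 45.8 to 49.5 CPM in Control and 47.9 to 56.0 CPM in BEZO. The other, hoxa9b, had 21.2 to 24.9 and 21.4 to 27.6 CPM. Both overlapped, with 95% intervals of the log2 fold change from -0.03 to 0.29 and from -0.17 to 0.26.

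Summed over members, anterior Hox transcripts took 199 to 217 CPM in Control and 248 to 255 CPM in BEZO, and central ones 278 to 306 and 348 to 367 CPM. A large part of the anterior sum was HOXB3. Its mean was 94.1 CPM of a mean sum of 208.5 CPM in Control, and 118.7 of 251.7 CPM in BEZO. Posterior transcripts took 216 to 232 CPM in Control and 217 to 231 CPM in BEZO, so the ranges overlapped. The posterior share of all Hox reads was 31.0 ± 0.15% in Control, 26.9 ± 0.49% in BEZO and 30.1 ± 0.81% in BaAQ (SD, n = 3). The median over members of each library's log2 difference from the Control mean was 0.23, 0.22 and 0.41 for anterior genes in BEZO and -0.07 to 0.07 in Control. For posterior genes it was -0.07, -0.06 and -0.02 in BEZO and -0.08 to 0.06 in Control. The posterior minus anterior difference was thus -0.30, -0.28 and -0.43 in the BEZO libraries and -0.03, 0.06 and -0.00 in the Control libraries. No test was made on these class levels.

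**Figure D3:**
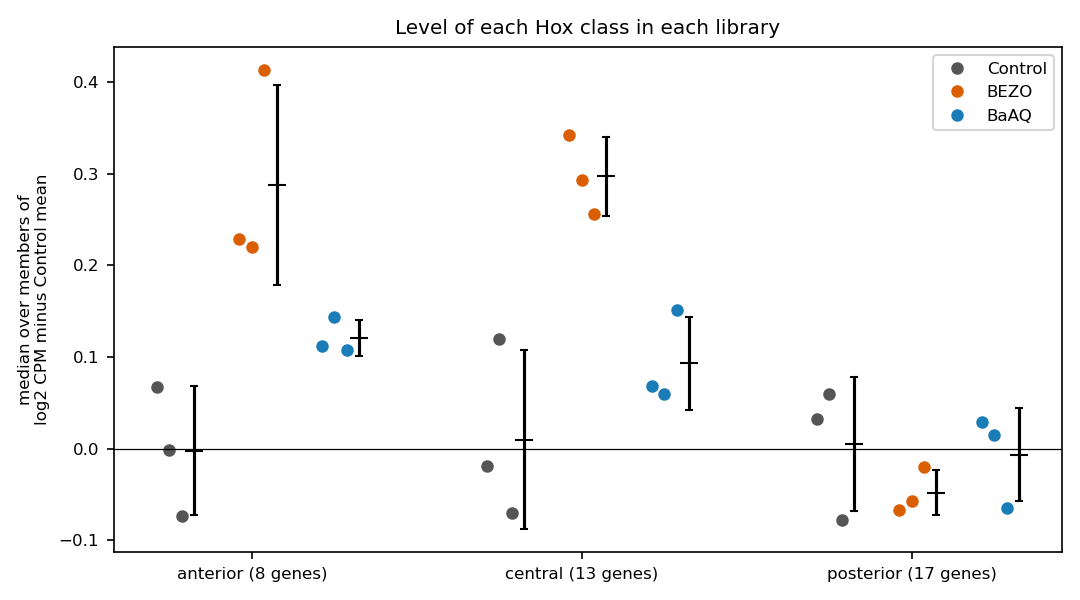
Median over the members of each class of a library's log2 CPM minus the Control mean (y axis) for anterior, central and posterior Hox genes; points are the 9 libraries and black bars mean ± SD over 3 libraries. Anterior and central levels of all BEZO libraries, 0.22 or more, lie above all Control and BaAQ libraries, while posterior levels of the 3 groups overlap. Anterior levels of all BaAQ libraries lie above all Control libraries, and central levels of BaAQ and Control overlap.

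The comparison of BaAQ with Control asks the same of the quinone. Of the 38 members 2 rose (5.26%), against 4.82% of all tested genes, and 0 fell by the edgeR test, against 5.41%. In either direction, 5.26% of members passed, below the 10.2% of all tested genes. The 2 were posterior genes, HOXC13 and HOXD11. At an unadjusted p under 0.05, 5 members were higher (11.6% of all genes) and 1 was lower (12% of all genes), and DESeq2 called 1 higher and 0 lower.

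HOXC13, the last gene of its cluster, which in mice is known for its role in hair and nails, had 6.79, 8.23 and 6.03 CPM in Control and 11.3, 11.9 and 10.2 CPM in BaAQ. All 3 BaAQ libraries lay above all Control libraries. Its log2 fold change was 0.66 ± 0.14 (adjusted p = 0.00482), the largest estimate above Control of any Hox gene in either compound, and the call held under every alternative run. HOXD11, whose group patterns the sacral region and the limb in mice, had 4.14, 5.06 and 4.58 CPM in Control and 6.51, 7.05 and 6.68 CPM in BaAQ. These groups also lay apart, with a log2 fold change of 0.54 ± 0.16 (adjusted p = 0.0396). That call was lost without any single Control library (adjusted p = 0.109 without Control 1, 0.0545 without Control 2, 0.109 without Control 3). It was lost as well without BaAQ 1 (0.0699), BaAQ 2 (0.101) or BaAQ 3 (0.0854), with DESeq2 (0.116) and with the replicate number as a block (0.0524).

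No other posterior gene passed. HOXD12 had the lowest estimate, -0.37 ± 0.19 (adjusted p = 0.254), with 5.38 to 6.43 CPM in Control and 3.73 to 5.75 CPM in BaAQ, and hoxd13a, with the fewest reads, was at -0.23 ± 0.37 (adjusted p = 0.767). Without BaAQ 3 the estimate of hoxd13a was 0.049. HOXC8, a central gene, was at 30.9 to 34.7 CPM in Control and 27.0 to 29.9 CPM in BaAQ. Its groups did not overlap, yet it did not pass (-0.20 ± 0.09, adjusted p = 0.176).

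Of the 6 genes that rose in BEZO, none passed in BaAQ. HOXB3 had 109, 102 and 107 CPM in BaAQ, above the Control libraries and below the BEZO libraries (log2 fold change against Control 0.17 ± 0.06, adjusted p = 0.0898). HOXC5 had 16.3, 13.98 and 16.8 CPM (0.33 ± 0.12, adjusted p = 0.0792). HOXC6 had 20.1, 19.9 and 20.0 CPM, above its Control libraries (0.18 ± 0.10, adjusted p = 0.282). For hoxb6b and HOXB5 (ENSDARG00000013057) the estimates were 0.20 ± 0.11 and 0.12 ± 0.08 (adjusted p = 0.27 and 0.403). HOXB5 (ENSDARG00000054030), at 36.7, 31.9 and 34.3 CPM, overlapped its Control libraries (0.01 ± 0.08, adjusted p = 0.974). Of the 6, only this last gene passed the direct test between the compounds, given below.

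Over all members 26 estimates were positive and 12 negative, against 50.6% and 49.4% of all tested genes. By class, the median log2 fold change in BaAQ was 0.14 for anterior, 0.12 for central and -0.00 for posterior genes, against 0.00 for all tested genes. Its correlation with the paralog group number was -0.32 over 38 genes. The posterior minus anterior difference of medians was -0.14 and was 0.016 without BaAQ 3. By library, the posterior minus anterior difference was -0.08, -0.13 and -0.17 in BaAQ, each below every Control library and above every BEZO library. The median anterior level by library was 0.11, 0.14 and 0.11 in BaAQ, also between the Control and BEZO libraries. These class levels were not tested. Groups lay apart with BaAQ higher for 7 members, against 13.3% of all genes, and lower for 1, against 14.1%. Summed levels in BaAQ were 225 to 228 CPM for anterior, 302 to 323 CPM for central and 226 to 236 CPM for posterior genes.

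The direct comparison of the compounds, BaAQ minus BEZO, uses their 6 libraries at the same dose and time. Of 38 members 2 passed, against 4.84% of all tested genes. Of these, 1 was higher in BaAQ, against 2.56% of all tested genes, and 1 lower, against 2.27%, so these counts were near the background. The gene higher in BaAQ was HOXC13, by 0.76 ± 0.15 on the log2 scale (95% interval 0.45 to 1.06, adjusted p = 0.00381). The gene lower in BaAQ was HOXB5 (ENSDARG00000054030), at -0.47 ± 0.08 (95% interval -0.64 to -0.30, adjusted p = 0.00125). In both genes the groups lay apart and both calls held under every alternative run.

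Where BEZO and BaAQ could not be told apart by the test, intervals were often wide. HOXC12 had 11.3, 14.3 and 8.22 CPM in BaAQ, and its difference of 0.57 ± 0.17 just missed the threshold (adjusted p = 0.0572). With the replicate number as a block its adjusted p was 0.034, without the filter on low counts 0.00666, and without BaAQ 3 0.00571. HOXD11 was at 0.45 ± 0.17 (95% interval 0.10 to 0.79, adjusted p = 0.145). Among anterior genes, hoxc1a was at -0.43 ± 0.20 and hoxb1b at -0.35 ± 0.12, with adjusted p = 0.258 and 0.0907, and the latter became 0.0463 without BEZO 1. For HOXD3, an anterior gene with many reads, the interval was narrow, from -0.16 to 0.17, and for hoxa2b it ran from -0.35 to 0.35.

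**Figure D4:**
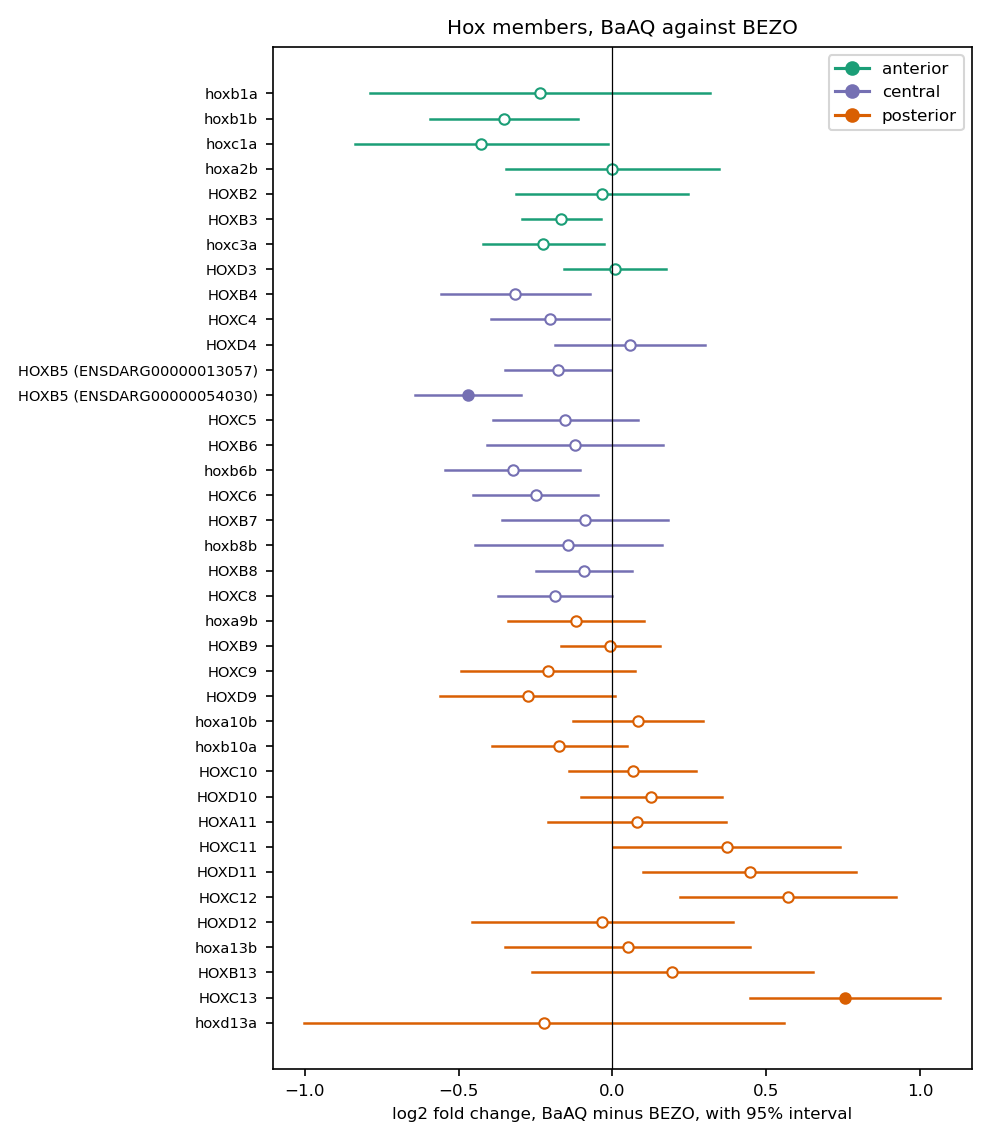
Log2 fold change of BaAQ minus BEZO with its 95% interval (x axis) for the 38 Hox genes in order of paralog group (y axis), coloured by class; filled points passed the test. Central genes lie mostly left of 0, and HOXC11, HOXD11, HOXC12 and HOXC13 lie to the right.

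Over all members 26 estimates were lower in BaAQ and 12 higher, against 50.1% and 49.9% of all tested genes. By class the median difference was -0.20 for anterior and -0.18 for central genes, with 7 of 8 and 12 of 13 estimates below 0, and 0.07 for posterior genes, with 10 of 17 above 0. The median of all tested genes was -0.00. Groups lay apart with BaAQ lower for 12 members, against 11.1% of all genes, and with BaAQ higher for 3, against 11.2%. At an unadjusted p under 0.05, 11 members were lower in BaAQ, against 8.75% of all genes, and these were 4 anterior and 7 central genes. By the same rule 4 were higher, against 9.26%, all of them posterior.

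The other genes of Hox regulation were taken from lists matched by symbol. Their counts stand against 3.09% of all tested genes higher and 3.35% lower in BEZO, 4.82% and 5.41% in BaAQ, and 2.56% and 2.27% in BaAQ against BEZO. In the lists of 21 to 24 tested genes, 1 call is close to these shares. For the Pbx, Meis and Pknox cofactors, 0 of 11 tested genes passed in any of the 3 comparisons, and their summed level was 1274 to 1336 CPM in Control, 1318 to 1377 CPM in BEZO and 1272 to 1309 CPM in BaAQ.

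Of 23 tested genes of retinoic acid synthesis, breakdown and reception, 0 passed in BEZO, and in BaAQ 1 was lower. ALDH1A2, which makes retinoic acid, was at 64.7 ± 1.70 CPM in Control, 54.7 ± 2.08 CPM in BEZO and 44.2 ± 3.59 CPM in BaAQ. It fell by 0.55 on the log2 scale in BaAQ (adjusted p = 6.24e-05), and in BEZO its change was -0.24 ± 0.07 (adjusted p = 0.0593). Against BEZO, 3 genes of this list were lower in BaAQ, namely ALDH1A2 and the retinoic acid binding protein genes CRABP1 (ENSDARG00000035904) and CRABP2 (ENSDARG00000030449). Their log2 differences were -0.31, -0.46 and -0.40 (adjusted p = 0.0248, 0.0203 and 0.0444). This CRABP1 gene was at 14.7 CPM in Control, 18.8 CPM in BEZO and 13.6 CPM in BaAQ. Against Control its log2 fold change was 0.35 in BEZO (adjusted p = 0.059) and -0.11 in BaAQ (adjusted p = 0.622). For this CRABP2 gene the values were 0.12 (adjusted p = 0.627) and -0.29 (adjusted p = 0.119). The other genes with these symbols did not pass and had positive estimates. These were 0.40 for CRABP1 (ENSDARG00000045926, adjusted p = 0.37) and 1.00 for CRABP2 (ENSDARG00000073978, adjusted p = 0.153). Of the 3 lower genes, 0 passed without BEZO 1, 1 without BEZO 3 and 1 without BaAQ 3. Without BaAQ 2 the calls of CRABP1 (0.0886) and ALDH1A2 (0.0516) were lost. The call of CRABP2 was lost in 8 of 16 alternative runs. Among 24 tested chromatin regulators 1 was higher in BEZO, and 3 were higher and 1 lower in BaAQ. Of the chromatin genes higher in BaAQ, 0 passed without Control 2 or without BaAQ 3, and 1 without Control 3. The lower one, the Polycomb methyltransferase gene EZH2 (log2 fold change -0.43 ± 0.10, adjusted p = 0.0115), was lost without Control 3 (0.0696) or BaAQ 3 (0.0585). Between the compounds 0 of 24 passed. The Polycomb gene cbx7a rose in BEZO, from 2.72 ± 0.788 to 7.73 ± 0.743 CPM (log2 fold change 1.47 ± 0.25, adjusted p = 0.000714). In BaAQ it was at 5.88 ± 2.46 CPM (1.07 ± 0.26, adjusted p = 0.0107), a call lost without Control 2 (0.0639) or BaAQ 3 (0.107).

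Body regions were followed by marker lists, and where in the embryo the listed genes were active was not measured. Of 21 tested hindbrain and spinal cord neuron genes 1 was higher in BEZO and 0 passed in BaAQ. Their summed level ran from 1501 to 1550 CPM over Control libraries and, without overlap, from 1591 to 1629 CPM over BEZO libraries. Over BaAQ libraries it ran from 1550 to 1577 CPM. Most of this sum was the neuronal gene ELAVL3, whose group means were 1012 (Control), 1057 (BEZO) and 1030 CPM (BaAQ). ELAVL3 did not pass in BEZO (log2 fold change 0.06 ± 0.06, adjusted p = 0.598). The list had estimates of either sign in BEZO, with a median log2 fold change of 0.13, against 0.03 in BaAQ. The gene that passed was OLIG2, a factor of motor neuron and oligodendrocyte precursors, which had 21.9 ± 1.92 CPM in Control against 29.1 ± 0.455 CPM in BEZO (adjusted p = 0.00686, or 0.0532 without Control 2). It was also the 1 gene of this list that was lower in BaAQ than in BEZO. For trunk mesoderm, 0 of 13 passed in BEZO, 1 was higher in BaAQ and 1 was lower in BaAQ than in BEZO. The list summed to 127 to 139 CPM in Control and 144 to 152 CPM in BEZO, again without overlap. Its median log2 fold change in BEZO was 0.13, and that of the gut and kidney list was 0.13 as well. Head and forebrain genes were lower in BEZO for 5 of 18 (3 without BEZO 3) and higher for 0. All 5 are known from eye development: rx2, rx1, SIX6 (ENSDARG00000031316), PAX6 and SIX3 (ENSDARG00000054879), which fell by 1.03, 0.60, 0.53, 0.36 and 0.39 on the log2 scale. Among members without a call, SIX6 (ENSDARG00000025187) and SIX3 (ENSDARG00000058008) had estimates of -0.48 and -0.20. Others had estimates of 0.34 for DLX1, 0.27 for DLX5 and 0.03 for OTX2. The list median was -0.04, so the fall was not one of the whole list. In BaAQ 1 gene, rx2, was lower, a call lost without BaAQ 3 (adjusted p = 0.0589). Higher in BaAQ than in BEZO were 2 of the list, rx2 and rx1. The latter call, of rx1, was lost in 9 of 16 alternative runs. The list summed to 447 to 494 CPM in Control and 440 to 447 CPM in BEZO.

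Fin bud genes were lower in BEZO for 3 of 11, and the list summed to 997 to 1019 CPM in Control, 806 to 824 CPM in BEZO and 664 to 749 CPM in BaAQ. The 3 were the actinodin genes and1, and2 and and3, which encode fin fold fibre proteins, and and2 was at 306 ± 4.53 CPM in Control, 184 ± 4.62 CPM in BEZO and 121 ± 24.7 CPM in BaAQ. The median log2 fold change of the list was -0.08 in BEZO and 0.11 in BaAQ, so the fall of the sum was not one of the whole list. For and3 the call in BEZO was lost without Control 1 (0.14), Control 2 (0.0888), Control 3 (0.0775), BEZO 2 (0.123), BEZO 3 (0.151) or BaAQ 1 (0.0514). In BaAQ, where the posterior genes HOXC13 and HOXD11 rose, the same list had 3 lower and 1 higher, and against BEZO 1 was lower. The tail bud list matched 14 genes, of which only 7 had enough reads to be tested. Of these 7, 0 passed in either compound, and the untested genes could not be judged. The list summed to 137 to 141 CPM in Control, 137 to 148 CPM in BEZO and 135 to 140 CPM in BaAQ. Of 11 gut and kidney genes 0 passed in BEZO and 2 were lower in BaAQ. Both of these carry the symbol SLC20A1 and were matched from a single listed name. The call of SLC20A1 (ENSDARG00000020114) was lost without Control 3 (adjusted p = 0.0925). Against BEZO 3 were lower, the same 2 and HNF4A, and 1, FABP2, was higher. Against BEZO, the calls of SLC20A1 (ENSDARG00000010641) and FABP2 were lost in 3 and 4 of 16 alternative runs. No matched gene of these lists was without reads in all libraries. The part of any region's share in the Hox values was not tested.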

How the data were processed

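The authors deposited raw read counts per Ensembl gene for 9 libraries, not normalized. Per the submitters' processing notes, CASAVA 1.8, FastQC, TopHat2, HTSeq and edgeR were used with genome build Zv9; options, annotation release and strand setting are not given in the sources used here. Libraries were made from polyadenylated RNA, per the labels' protocols. Symbols came from the reference name table by identifier (20769 of 32434).

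The fit used edgeR version 4.0.16 under R 4.3.3 (filterByExpr, TMM, quasi-likelihood test of the 3 group means over all 9 libraries, 6 residual degrees of freedom, common biological coefficient of variation 7.23%). The smallest library sets 3 reads to 0.37 CPM, for counting error only. Intervals are 95% intervals of the fit. The fit was also run on simulated counts with planted changes larger than most Hox changes here, so that run does not bear on calls of this size. Members and lists were chosen with earlier results of these data known. Named were members past the threshold, the 3 highest and 3 lowest estimates per comparison, the 2 with the highest Control level per class, and up to 4 passing genes per list. Where a listed symbol was absent, the capital symbol without its duplicate suffix was used. Alternatives were DESeq2 1.42.0, DESeq2 and upper-quartile size factors, no filter beyond 1 read, a filter of 2 CPM in 3 libraries, fits of 2 groups, the replicate number as a block, an adjusted p under 0.01, each library left out, and other class limits. Figures used Python 3.11.15 and matplotlib 3.10.9. No sample was left out. The list of upstream factors is not reported here.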

Additional observations from a re-analysis of the deposited data

Results flagged for a closer look

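A pair of Hox genes differed between the compounds by the direct test of BaAQ against BEZO. HOXB5 (ENSDARG00000054030) was lower in BaAQ by a log2 difference of -0.47, with BEZO above Control and BaAQ close to it. HOXC13 was higher in BaAQ by a log2 difference of 0.76, with BaAQ above Control and BEZO close to it. Groups of 3 libraries are too small for a search for outlying samples.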

How the results depend on the processing

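With each library left out in turn, the number of Hox genes past the threshold ran from 4 to 7 in BEZO against Control (4 without BEZO 3), from 1 to 2 in BaAQ against Control and from 2 to 3 between the compounds. All tested genes past it ran from 761 to 1502, 1276 to 1992 and 531 to 883. The posterior minus anterior difference of medians ran from -0.41 to -0.30, from -0.20 to 0.016 and from 0.15 to 0.26, against -0.37, -0.14 and 0.26 with all libraries; it was -0.30 in BEZO without Control 1 and 0.15 between the compounds without BaAQ 2. At an adjusted p under 0.01, 4, 1 and 2 Hox genes and 620, 978 and 409 genes in all passed. DESeq2 called 1 Hox gene in BaAQ, as did the fit with the replicate block, which gave 7 Hox genes in BEZO and 3 between the compounds. Without the filter on low counts, 1389 genes passed between the compounds. For hoxd13a in BaAQ the log2 fold change ran from -0.42 to 0.049, the latter without BaAQ 3. The cause of these shifts was not tested. Other class limits changed the posterior minus anterior difference by less than its SD between libraries. Same-numbered libraries did not vary together (correlations of -0.04 to 0.03 over 9 pairs, and -0.05 to 0.05 over 18 pairs of other numbers), so the number is not taken as a pairing. At 6 to 18 reads per library, hoxd13a is the least precise of the members.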
